A study of Mus musculus with 22 samples.

Results

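The genes described here are p53 and the genes it is known to act on, a list of 32, of which 29 were measured among 18193 genes in all. The list was chosen by function but with earlier results of these data known, so its counts are not independent of the data. Each gene was read from its brightest probe set on average, among those that the platform annotation assigns to it alone. The other 3 listed genes, the gene of p53 itself among them, had no probe set named to them in the annotation used and were not analysed here. The cells were primary fibroblasts grown from mouse embryos (MEFs), and their RNA was isolated 7 days after infection with an adenovirus and hybridized to 22 Affymetrix mouse arrays. In the 7 double arrays, adenoviral Cre recombinase had both activated a mutant oncogene, not reported here by name, and deleted Wt1, a zinc finger transcription factor. In the 5 oncogene arrays Cre had activated the oncogene from a conditional allele, and in the 5 Wt1-null arrays it had deleted a conditional Wt1 allele, called Wt1f/f in the labels of some of these arrays. The 5 GFP control arrays came from wild-type MEFs given an adenovirus that carries GFP, so every comparison with them also compares Cre with GFP virus.

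The protein p53 is a transcription factor that is kept at a low level by Mdm2, a ubiquitin ligase that marks it for destruction, while Mdm4 holds down its activity. DNA damage frees p53 from Mdm2, and so do oncogenes in fibroblasts, which act largely through Arf, a product of the Cdkn2a locus that binds Mdm2. Active p53 raises transcription of genes for cell death, cell cycle arrest, stress responses and DNA repair, and of Mdm2 itself, which closes a feedback loop. Much of the control of p53 lies in its protein level, which arrays do not measure.

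Values are log2 intensities after RMA normalization, so a difference of 1 is a doubling. They set no probe set's level against another's. The array medians lay between 6.23 and 6.33. All 8 fibroblast markers, such as Col1a1 and Vim, stood at or above the 95.2 percentile of all probe sets. Markers of other cells ranged from dim to moderate. The 4 epithelial markers ran from 4.03 for Cdh1 to 8.40 for Epcam, the 4 blood markers from 4.52 for Ptprc to 7.30 for Csf1r, the 4 endothelial markers from 4.62 for Pecam1 to 7.17 for Kdr and the 3 muscle markers from 5.49 for Myog to 8.10 for Des. Wt1 itself stood at the 14.1 percentile of all probe sets in these fibroblasts and averaged 4.45 ± 0.19 in double, 4.59 ± 0.06 in oncogene, 4.47 ± 0.15 in Wt1-null and 4.38 ± 0.10 in GFP control arrays (SD), so it gave no check of the deletion. The array of Wt1-null replicate 2 was closer to that of double replicate 2 than to any other, with a correlation of 0.998 over genes and an SD of the difference of 0.152, and Wt1-null replicates 3 and 4 were almost as close, with an SD of 0.162. The arrays of double replicate 4 and oncogene replicate 4 stood apart, with median correlations to the other arrays of 0.936 and 0.961, against 0.970 to 0.984 for the other 20, and they were closest to each other (0.982). The labels do not say whether replicates were separate embryos or cultures, and p-values reflect only how the arrays themselves spread, which may be technical.

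The clearest differences from the control were in 3 genes of cell death. Perp and Zmat3 were higher in double arrays, and Bid was lower in both double and oncogene arrays. Groups were compared with limma across all 18193 genes, with Benjamini-Hochberg adjustment, and called where the adjusted p fell below 0.05. Between double and GFP control arrays 3 of the 29 members were called, beside 5.93% of all genes. Of these 2 were higher, beside 3.48% of all genes, and 1 was lower, beside 2.45%. Between oncogene and GFP control arrays 1 member was called, beside 2.04% of all genes, and it was lower, beside 0.72% called lower among all genes. Between Wt1-null and GFP control arrays 0 members were called by limma, beside 0.104% of all genes, and 5 had an unadjusted p below 0.05. These 3 comparisons share the 5 control arrays. Counts of 3 and 1 among 29 members are not read as a difference from the shares of all genes. Within the third set of consecutive accession numbers, described later, the count in the double comparison was 2, beside 4.37% of all genes. Without double replicate 1 the count in the double comparison was 6, with Apaf1, Plk2 and Steap3 added, beside 9.5% of all genes. Without the 2 arrays that stood apart it was 4, with Rrm2b added, beside 10.1%.

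Most other members lay above the control in double arrays without passing the test, and smaller majorities of the members did in oncogene and Wt1-null arrays. In double arrays 24 of 29 members had a log2 change above 0, with a median of 0.32, whereas 45.4% of all genes did, with a median of -0.02. In oncogene arrays 18 of 29 members lay above the control, with a median of 0.22, beside 43.8% and a median of -0.03 for all genes. In Wt1-null arrays it was 16 of 29, with a median of 0.13, beside 40.3% and a median of -0.05 for all genes. Many members rose and fell together across arrays, as described later, so these are not counts of independent genes. At an unadjusted p below 0.05 there were 12 members in the double comparison, beside 20.1% of all genes, and 5 in each of the others, beside 15% for oncogene and 12.7% for Wt1-null arrays.

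**Figure D1:**
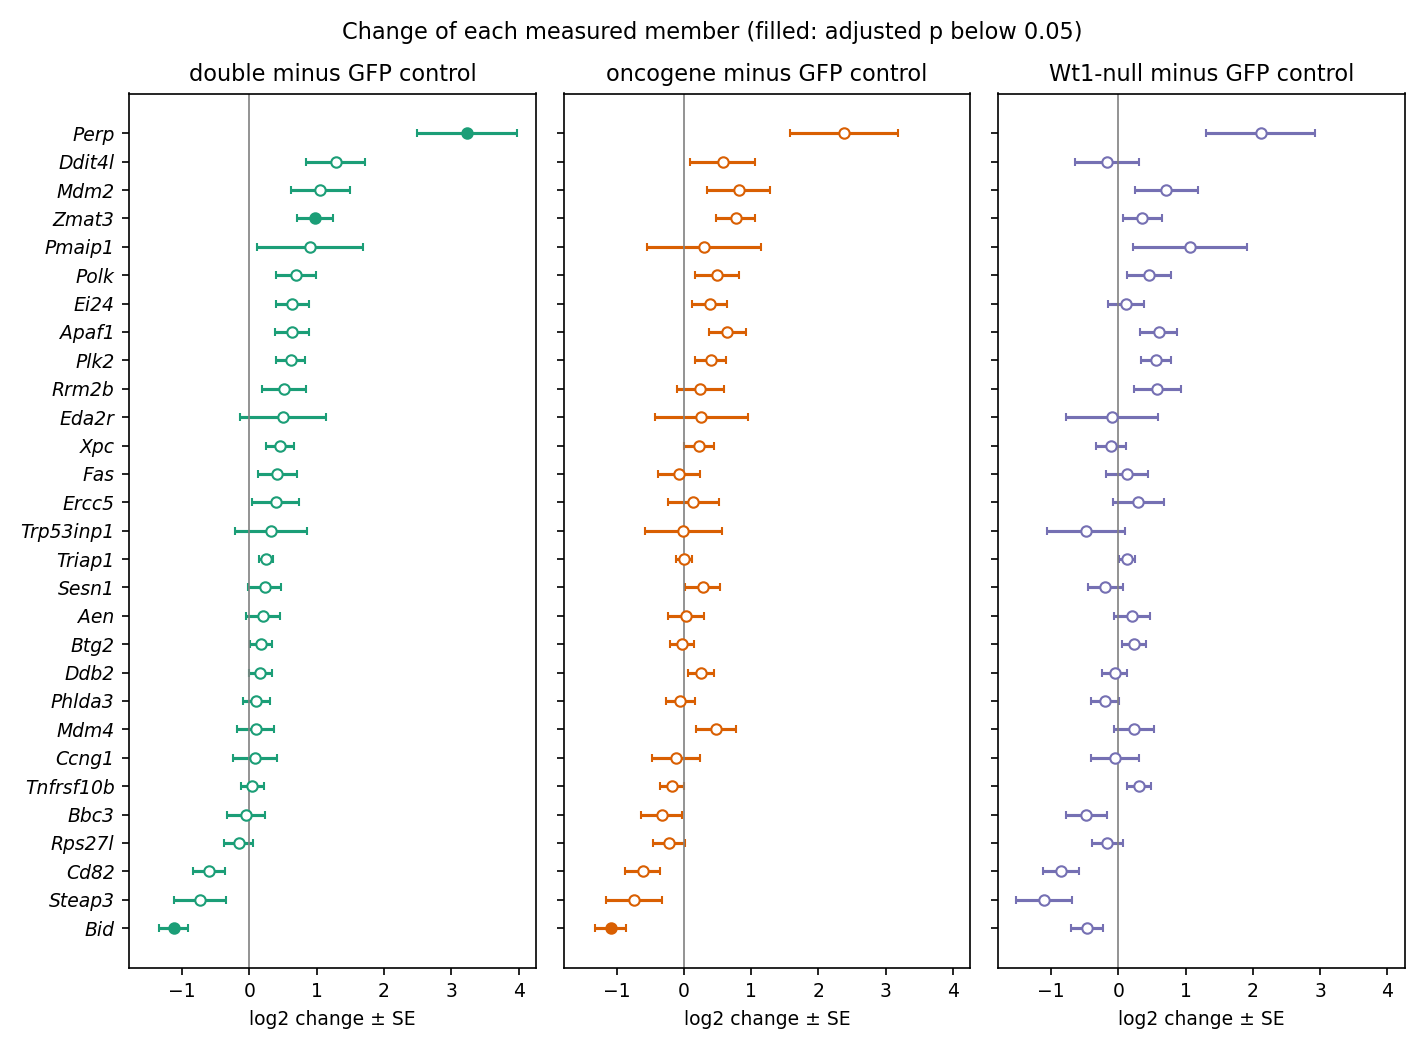
Log2 change of each of the 29 measured members against the GFP control arrays (horizontal axis, with the standard error from limma), for double, oncogene and Wt1-null arrays from left to right, in the order of the double change. Filled points were called at an adjusted p below 0.05: Perp, Zmat3 and Bid in double arrays and Bid in oncogene arrays.

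Among the regulators, Mdm2 was brighter on average in each group that had received Cre, but its arrays spread widely. In double arrays Mdm2 ran from a lowest value of 10.29 through a median of 11.57 to a highest of 12.67. In oncogene arrays (replicates 1, 3, 4, 5 and 6) it was 11.42, 12.16, 10.61, 10.56 and 10.92, and in Wt1-null arrays 11.19, 12.39, 10.90, 10.88 and 9.82. In GFP control arrays it was 10.83, 10.51, 10.04, 10.24 and 9.97. Every pair of groups overlapped, and the lowest single value belonged to a Wt1-null array. The log2 change against the control was 1.05 ± 0.44 in double arrays (limma, SE; adjusted p = 0.172), 0.81 ± 0.47 in oncogene arrays (adjusted p = 0.445) and 0.72 ± 0.47 in Wt1-null arrays (adjusted p = 0.537). A second Mdm2 probe set gave 0.90 in double arrays, and the third, dim with a mean of 4.62, gave -0.03. Mdm4, the partner of Mdm2, averaged 8.08 ± 0.62 in double, 8.47 ± 0.41 in oncogene, 8.22 ± 0.27 in Wt1-null and 7.99 ± 0.49 in GFP control arrays (SD), and it was called in none of the 6 comparisons by limma. The smallest unadjusted p of Mdm4 from limma was 0.116, in the oncogene comparison, where its log2 change was 0.48. Its other probe sets, with means of 6.35, 7.19 and 5.43, gave -0.32, -0.15 and 0.01 there.

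The window before the start of Mdm2 that RefSeq lists holds a single copy of the p53 decamer, the sequence of which a p53 binding site contains a pair. It is shown because Mdm2 is the feedback target and its value is used later as a measure within groups. Whether p53 binds this single decamer or acts on Mdm2 through it was not tested. The bases before the start, on the minus strand of GRCm38.p6 at chr10:117710759-117711008, read 5′ to 3′ with the decamer in capitals.

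Mdm2: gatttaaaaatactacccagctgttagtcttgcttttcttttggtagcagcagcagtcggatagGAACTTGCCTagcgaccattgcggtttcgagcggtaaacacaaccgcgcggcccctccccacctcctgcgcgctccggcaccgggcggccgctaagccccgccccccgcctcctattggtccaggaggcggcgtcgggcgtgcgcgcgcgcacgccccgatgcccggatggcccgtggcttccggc

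Of the 14 measured genes of cell death, 12 lay above the control in double arrays, beside 45.4% of all genes. By limma 3 were called, beside 5.93%. Perp, a membrane protein of cell junctions that takes part in p53-dependent death, had the largest change of any member in each comparison with the control. In double arrays Perp ran from a lowest value of 8.98 through a median of 10.35 to a highest of 12.26. In oncogene arrays it was 9.13, 11.10, 10.42, 8.21 and 9.82, and in Wt1-null arrays 8.97, 11.84, 10.14, 9.98 and 6.45. In GFP control arrays it was 6.12, 7.97, 6.95, 8.24 and 7.50. All 7 double arrays lay above all 5 control arrays, as they did for 2.49% of all genes, whereas the lowest oncogene array lay just under the highest control array and the lowest Wt1-null array lay among the controls. The log2 change of Perp was 3.24 ± 0.75 in double arrays, 9.42-fold (limma, SE; adjusted p = 0.0136), and it was called under all 35 alternative settings, with values between 2.87 and 3.50. It was 2.38 ± 0.81 in oncogene arrays (adjusted p = 0.138) and 2.12 ± 0.81 in Wt1-null arrays (adjusted p = 0.306). The array has 1 probe set for Perp. The highest Perp value was that of double replicate 5, which also had the highest Mdm2 value and the highest value of the epithelial keratin Krt18, 11.08.

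Zmat3, a zinc finger protein that binds RNA and is induced by p53, was also higher in double arrays. There it ran from a lowest value of 10.69 through a median of 11.33 to a highest of 12.02. In oncogene arrays Zmat3 was 10.92, 11.49, 11.82, 10.48 and 10.82, and in Wt1-null arrays 10.80, 11.38, 10.86, 10.76 and 9.67. In GFP control arrays it was 10.39, 9.996, 10.30, 10.40 and 10.58. All double arrays lay above all control arrays, as they did for 2.49% of all genes, with 10.69 in the lowest double and 10.58 in the highest control array. The lowest oncogene array and the lowest Wt1-null array fell within or below the control range. The log2 change was 0.98 ± 0.27 in double arrays, 1.97-fold (limma, SE; adjusted p = 0.033), 0.77 ± 0.29 in oncogene arrays (adjusted p = 0.189) and 0.36 ± 0.29 in Wt1-null arrays (adjusted p = 0.621). The call in double arrays was lost on leaving out double replicate 2, 3, 4, 5 or 7 or GFP control replicate 1, 2, 3 or 4, with an adjusted p between 0.0502 and 0.098, and the log2 change then lay between 0.862 and 0.995. It held without any other single array, and was lost with the set of consecutive accession numbers as a block (adjusted p = 0.0687). The highest double value, 12.02, and the highest oncogene value, 11.82, were those of the 2 arrays that stood apart, and without both the double change was 0.86 (adjusted p = 0.0319).

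Bid, the death agonist that links death receptors to mitochondria, moved the other way. In double arrays Bid ran from a lowest value of 8.25 through a median of 9.04 to a highest of 9.77. In oncogene arrays it was 9.73, 9.08, 8.51, 8.91 and 9.52, and in Wt1-null arrays 10.14, 9.83, 9.74, 9.61 and 9.56. In GFP control arrays it was 10.40, 10.39, 10.26, 10.28 and 9.86. All double and all oncogene arrays lay below all control arrays, as they did for 1.79% and 2.81% of all genes, while Wt1-null replicate 1 lay above the lowest control array. The log2 change was -1.13 ± 0.22 in double arrays, 0.458-fold (limma, SE; adjusted p = 0.00433), and -1.09 ± 0.24 in oncogene arrays, 0.47-fold (adjusted p = 0.0189). It was -0.46 ± 0.24 in Wt1-null arrays (adjusted p = 0.413). The call in double arrays held under all 35 alternative settings, and that in oncogene arrays was lost without oncogene replicate 5 (adjusted p = 0.0561), GFP control replicate 2 (0.0562) or GFP control replicate 3 (0.0509). The other probe sets of Bid gave -0.81 and -0.92 in double arrays (limma over all probe sets, adjusted p = 0.0174 and 0.0125) and -0.84 and -0.86 in oncogene arrays (adjusted p = 0.0425 and 0.0535). The lowest double and the lowest oncogene value of Bid were also those of the 2 arrays that stood apart, and without both the change was -0.98 in double (limma, adjusted p = 0.00165) and -0.93 in oncogene arrays (adjusted p = 0.0118). Within the third set of consecutive accession numbers, the one that holds all double arrays and 4 arrays each of oncogene and GFP control, the double change was -1.08 for Bid (limma, adjusted p = 0.0224), 2.93 for Perp (adjusted p = 0.0209) and 0.99 for Zmat3 (adjusted p = 0.0536), and the oncogene change of Bid was -1.19 (adjusted p = 0.0423).

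**Figure D2:**
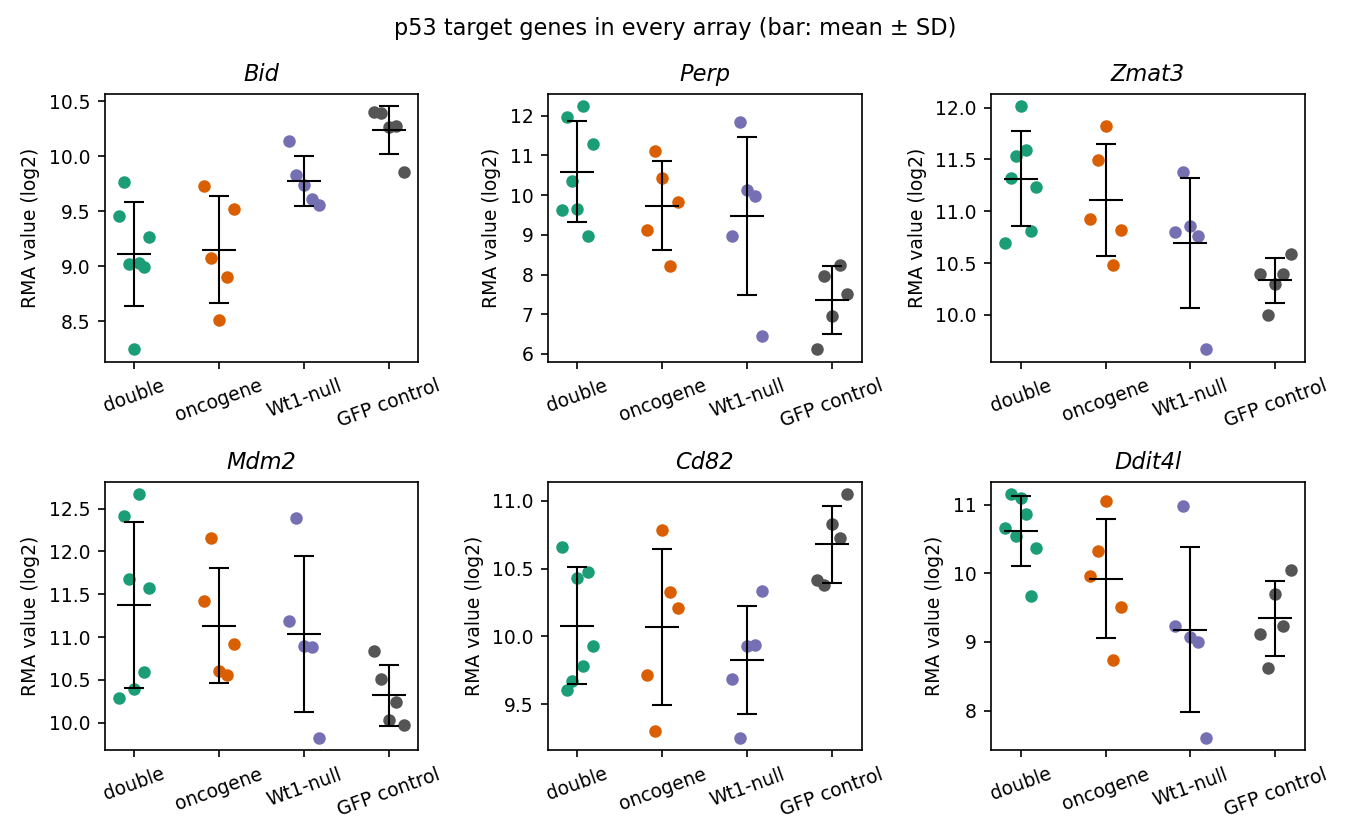
RMA values (log2, vertical axis) of Bid, Perp, Zmat3, Mdm2, Cd82 and Ddit4l in each of the 22 arrays, with the mean and SD of each group, in the order double, oncogene, Wt1-null and GFP control. The double arrays of Perp (lowest 8.98) lie above every control array (highest 8.24), as for 2.49% of all genes. Those of Bid (highest 9.77) lie below every control array (lowest 9.86), as for 1.79% of all genes.

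The remaining genes of cell death did not pass the test in any comparison. Fas, a death receptor at the cell surface, ran from 8.27 through a median of 8.96 to 10.03 in double arrays and was 8.89, 8.46, 8.72, 8.13 and 8.44 in oncogene arrays. It was 8.58, 10.09, 8.35, 8.29 and 8.33 in Wt1-null arrays and 8.13, 8.41, 8.86, 8.72 and 8.87 in GFP control arrays. The groups overlapped throughout, and the values above 10 were those of double replicate 2 and Wt1-null replicate 2, the pair of arrays closest to each other. Bbc3, which encodes the death protein Puma, ran from 8.07 through a median of 9.04 to 9.21 in double arrays. It was 9.33, 8.78, 8.72, 7.96 and 7.72 in oncogene arrays, 8.65, 9.15, 7.97, 8.16 and 7.86 in Wt1-null arrays and 9.28, 8.37, 9.02, 8.54 and 8.94 in GFP control arrays. The double arrays lay inside the range of the other groups. Its log2 change against the control was -0.06 ± 0.28 in double, -0.33 ± 0.31 in oncogene and -0.47 ± 0.31 in Wt1-null arrays (limma, SE). Triap1, a small inhibitor of apoptosis, ran from 9.21 through a median of 9.51 to 9.86 in double arrays, was 9.13, 9.62, 9.34, 9.05 and 9.22 in oncogene arrays, 9.35, 9.32, 9.49, 9.56 and 9.26 in Wt1-null arrays and 9.41, 9.39, 9.22, 9.21 and 9.12 in GFP control arrays. It was the least variable of these genes, and its groups overlapped.

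Pmaip1, which encodes the death protein Noxa, differed more between the arrays of a group than between groups. It averaged 8.64 ± 1.57 in double, 8.04 ± 1.12 in oncogene, 8.81 ± 1.36 in Wt1-null and 7.74 ± 1.52 in GFP control arrays (SD). Apaf1, the scaffold of the apoptosome, averaged 9.51 ± 0.62 in double, 9.52 ± 0.38 in oncogene, 9.48 ± 0.28 in Wt1-null and 8.87 ± 0.36 in GFP control arrays. Its values in the control included a single high array, replicate 1. Ei24, a membrane protein of the endoplasmic reticulum induced by p53, averaged 12.12 ± 0.34 in double, 11.87 ± 0.43 in oncogene, 11.60 ± 0.70 in Wt1-null and 11.48 ± 0.11 in GFP control arrays. The means of the 4 groups of Eda2r, a receptor of the TNF family, and of Trp53inp1, a stress protein that promotes p53 activity, lay within 0.58 and 0.80 of each other, less than the SD inside the double group. Aen, a nuclease active in apoptosis, Phlda3, an inhibitor of Akt, and the death receptor Tnfrsf10b completed the group, with log2 changes between -0.20 and 0.31 in the 3 comparisons with the control.

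Of the 8 measured genes of arrest and stress responses, 0 were called in any comparison by limma, beside 0% to 5.93% of all genes. In double arrays 5 of the 8 lay above the control, in oncogene arrays 3 and in Wt1-null arrays 2. The shares of all genes above the control were 45.4%, 43.8% and 40.3%. Median log2 changes of the 8 were 0.13, -0.07 and -0.16 in the same order. In the double comparison 3 of them had an unadjusted p below 0.05, beside 20.1% of all genes. Ddit4l, an inhibitor of mTOR signalling, stood highest in double arrays, where it ran from 9.67 through a median of 10.67 to 11.16. It was 9.97, 10.33, 11.06, 8.74 and 9.51 in oncogene arrays, 9.24, 10.98, 9.07, 8.997 and 7.60 in Wt1-null arrays and 9.11, 8.62, 9.69, 9.23 and 10.05 in GFP control arrays. The double arrays overlapped the control arrays only between 9.67 and 10.05, and Wt1-null replicate 2 stood well above the rest of its group. The log2 change of Ddit4l was 1.28 ± 0.44 in double against GFP control arrays (limma, SE; adjusted p = 0.094), 0.70 ± 0.44 in double against oncogene arrays (adjusted p = 1) and 1.44 ± 0.44 in double against Wt1-null arrays (adjusted p = 0.145). Without Wt1-null replicate 2 it was called in double against GFP control arrays (adjusted p = 0.038) and in double against Wt1-null arrays, where the log2 change was 1.90 (adjusted p = 0.00795), beside 7.07% and 5.08% of all genes called.

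Cd82 and Steap3 had lower means than the control in every group given Cre. Cd82, a tetraspanin of the cell surface known as a suppressor of metastasis, ran from 9.60 through a median of 9.93 to 10.66 in double arrays. It was 9.71, 9.30, 10.79, 10.33 and 10.21 in oncogene arrays, 9.68, 9.25, 9.93, 9.94 and 10.34 in Wt1-null arrays and 10.42, 10.38, 10.83, 10.72 and 11.05 in GFP control arrays. All Wt1-null arrays lay below all control arrays, as they did for 4.19% of all genes, by a gap between 10.34 and 10.38. The log2 change of Cd82 was -0.60 ± 0.24 in double (limma, SE; adjusted p = 0.157), -0.61 ± 0.26 in oncogene (adjusted p = 0.265) and -0.85 ± 0.26 in Wt1-null arrays (adjusted p = 0.22). Steap3, a metal reductase linked to the release of vesicles after p53 activation, ran from 7.30 through a median of 8.08 to 10.04 in double arrays. It was 8.78, 7.50, 8.85, 7.99 and 7.79 in oncogene arrays, 7.59, 7.99, 7.72, 7.56 and 8.23 in Wt1-null arrays and 8.44, 8.05, 9.31, 9.17 and 9.62 in GFP control arrays. The highest value of all belonged to double replicate 1, and without that array the double change was -1.04 and was called (adjusted p = 0.0317), against -0.73 ± 0.38 with it (adjusted p = 0.297).

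The other arrest and stress genes were Ccng1, cyclin G1, Rps27l, a ribosomal protein paralog induced by p53, Sesn1, a sestrin that restrains mTOR, Btg2, an antiproliferative cofactor of deadenylation, and Plk2, a polo-like kinase. Ccng1 averaged 13.62 ± 0.70 in double, 13.42 ± 0.40 in oncogene, 13.49 ± 0.80 in Wt1-null and 13.53 ± 0.16 in GFP control arrays (SD). Rps27l averaged 13.60 ± 0.46 in double, 13.53 ± 0.35 in oncogene, 13.60 ± 0.49 in Wt1-null and 13.75 ± 0.03 in GFP control arrays. The 4 group means of each differed by less than the SD in the double group, while the control arrays of Rps27l all lay between 13.73 and 13.79. Sesn1 averaged 9.29 ± 0.43 in double, 9.35 ± 0.30 in oncogene, 8.87 ± 0.35 in Wt1-null and 9.06 ± 0.59 in GFP control arrays. Plk2 had a log2 change of 0.61 in double arrays (limma, adjusted p = 0.0927).

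Ccng1, Rps27l and Sesn1 are the members with a pair of p53 decamers in a listed promoter window. RefSeq windows of 300 bases, 250 before and 50 after a start, were listed for 21 of the 29 members, in 34 windows. The p53 decamer has a CNNG core, with A or T at both N, and reads the same on both strands, so each window was searched once. A match without mismatch was found in 9 of 34 member windows, 26.5%, beside 8.36% of all 32851 windows. A pair with at most 2 mismatches in all, none of them at the C or the G of the core, and at most 13 bases between was found in 3 member windows, 8.82%, beside 4.09% of all windows. All 3 of these are also among the 9, and 2 of the 9, both of Aen, overlap and share a decamer. By gene, a match without mismatch was found for 8 of 21 members, 38.1%, beside 9.55% of all genes with a window. The members were listed as genes that p53 is known to act on, so these shares are not an independent result. A match is a description of the letters. The 3 stretches before the start are given 5′ to 3′ with the decamers in capitals. They lie at chr11:40755287-40755536 on the minus strand for Ccng1, at chr9:66946163-66946412 on the plus strand for Rps27l and at chr10:41887189-41887438 on the plus strand for Sesn1, all in GRCm38.p6.

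Ccng1: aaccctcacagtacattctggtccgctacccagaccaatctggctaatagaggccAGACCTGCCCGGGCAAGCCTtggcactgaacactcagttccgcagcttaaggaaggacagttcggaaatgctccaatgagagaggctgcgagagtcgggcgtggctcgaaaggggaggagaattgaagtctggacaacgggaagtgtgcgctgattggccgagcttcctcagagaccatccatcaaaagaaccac

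Rps27l: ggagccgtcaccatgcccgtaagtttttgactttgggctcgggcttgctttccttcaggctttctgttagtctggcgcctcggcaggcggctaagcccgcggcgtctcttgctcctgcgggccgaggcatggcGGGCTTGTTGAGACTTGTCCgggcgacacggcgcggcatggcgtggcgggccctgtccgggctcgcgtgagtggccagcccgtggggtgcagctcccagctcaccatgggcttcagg

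Sesn1: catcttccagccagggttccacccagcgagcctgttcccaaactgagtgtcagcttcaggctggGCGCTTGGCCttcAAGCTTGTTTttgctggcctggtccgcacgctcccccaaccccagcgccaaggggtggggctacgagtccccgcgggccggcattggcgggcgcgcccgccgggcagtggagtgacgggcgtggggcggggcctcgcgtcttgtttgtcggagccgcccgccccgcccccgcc

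The pair in Ccng1 and that in Rps27l each had 1 mismatch and no spacer. That in Sesn1 had 2 mismatches and a spacer of 3 bases.

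The 5 repair genes all lay above the control in double arrays, beside 45.4% of all genes. By limma 0 of them were called, beside 5.93%, and 2 had an unadjusted p below 0.05, beside 20.1%. Xpc, which recognises bulky DNA damage, ran from 7.36 through a median of 7.86 to 8.55 in double arrays. It was 7.70, 8.18, 7.80, 7.39 and 7.14 in oncogene arrays, 7.40, 7.97, 7.04, 7.17 and 6.95 in Wt1-null arrays and 7.68, 7.35, 7.10, 7.27 and 7.68 in GFP control arrays. All groups overlapped. The log2 change of Xpc was 0.57 ± 0.21 in double against Wt1-null arrays (limma, SE; adjusted p = 0.215), and without Wt1-null replicate 2 it was 0.73 and called (adjusted p = 0.0409), beside 5.08% of all genes. Polk, a polymerase that copies past lesions, averaged 9.96 ± 0.65 in double, 9.76 ± 0.33 in oncogene, 9.73 ± 0.72 in Wt1-null and 9.27 ± 0.18 in GFP control arrays (SD). Ercc5, a nuclease of excision repair, averaged 9.39 ± 0.84 in double, 9.14 ± 0.53 in oncogene, 9.30 ± 0.68 in Wt1-null and 9.002 ± 0.16 in GFP control arrays. Rrm2b, the ribonucleotide reductase subunit induced by p53, averaged 8.39 ± 0.81 in double, 8.13 ± 0.65 in oncogene, 8.46 ± 0.31 in Wt1-null and 7.88 ± 0.24 in GFP control arrays. Its lowest values, 6.87 in double replicate 4 and 7.02 in oncogene replicate 4, were those of the arrays that stood apart, and without both the double change was 0.77 and called (limma, adjusted p = 0.022). Ddb2, a sensor of ultraviolet damage, had group means between 6.40 and 6.71.

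Between groups that all received Cre, no member was called. In double against oncogene arrays, which asks what the loss of Wt1 adds to the oncogene, 0 of 29 members were called by limma, beside 0% of all genes, and 1 member had an unadjusted p below 0.05, beside 3.09% of all genes. That was Triap1, with a log2 change of 0.24 ± 0.11 (limma, SE; adjusted p = 1). Of the members 24 lay above 0, with a median log2 change of 0.21, beside 53.2% and a median of 0.01 for all genes. In double against Wt1-null arrays, which asks what the oncogene adds where Wt1 is deleted, 0 of 29 were called, beside 0.0824% of all genes, and 5 had an unadjusted p below 0.05, beside 14.8%. Of the members 23 lay above 0, with a median of 0.24, beside 58% and a median of 0.04 for all genes. The smallest p-values there after Ddit4l were those of Bid, with -0.66 ± 0.22 (limma, SE; adjusted p = 0.164), and Xpc. The same 7 double arrays serve in both comparisons and in that with the control.

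The interaction is the difference of double and Wt1-null arrays minus that of oncogene and control arrays, and it contains the change of virus. In it 0 of 29 members were called by limma, beside 0.011% of all genes, and 1 had an unadjusted p below 0.05, beside 8.55% of all genes. That was Cd82, at 0.86 ± 0.36 (limma, SE; adjusted p = 0.579), followed by Steap3 at 1.10 ± 0.56 (adjusted p = 0.579) and Bbc3 at 0.75 ± 0.42 (adjusted p = 0.599). Of the members 15 lay above 0, with a median of 0.11, beside 59.7% and a median of 0.06 for all genes.

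Other parts of the p53 pathway gave the following counts. Of 29 measured further p53 targets, 5 were called higher in double against GFP control arrays, beside 3.48% of all genes, and 0 lower. They were Igfbp3, which binds insulin-like growth factors, with a log2 change of 2.63, the lipid transfer protein gene Pltp with 1.84, Pml, the organiser of nuclear bodies, with 1.51, the lipase gene Abhd4 with 1.10 and Gtse1, which binds p53 in dividing cells, with 0.47. Of 20 regulators of p53, 2 were called, both higher in double arrays, beside 3.48% of all genes. They were Trp53bp1, a scaffold at DNA breaks, with 1.04 and Trp53bp2, an activator of p53 in cell death, with 0.77. In oncogene arrays 0 of these targets and 0 of these regulators were called against the control by limma, beside 2.04% of all genes. There 8 targets and 7 regulators had an unadjusted p below 0.05, beside 15%. In Wt1-null arrays it was again 0 of both, beside 0.104% of all genes. There 2 targets and 5 regulators had an unadjusted p below 0.05, beside 12.7%. Neither of the 2 p53 relatives was called in any comparison.

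Cdkn1a, the p21 inhibitor of cyclin-dependent kinases and the best known arrest target of p53, overlapped between all groups. It ran from 12.06 through a median of 12.80 to 13.53 in double arrays and was 12.69, 13.17, 13.25, 11.81 and 12.35 in oncogene arrays. It was 13.16, 13.48, 12.34, 12.35 and 10.28 in Wt1-null arrays and 12.34, 12.71, 12.46, 12.19 and 12.05 in GFP control arrays. Wt1-null replicate 5 was far below all other arrays, and the log2 change against the control was 0.57 ± 0.40 in double (limma, SE; adjusted p = 0.465), 0.30 ± 0.43 in oncogene and -0.03 ± 0.43 in Wt1-null arrays. Cdkn2a, whose probe set does not tell Arf from p16, ran from 7.76 through a median of 9.36 to 9.90 in double arrays and was 8.65, 9.65, 8.27, 6.85 and 8.26 in oncogene arrays. It was 8.51, 9.80, 7.57, 7.64 and 6.74 in Wt1-null arrays and 7.65, 7.76, 7.75, 7.52 and 7.47 in GFP control arrays. The double arrays all lay above the control arrays by a narrow margin, as they did for 2.49% of all genes. The log2 change of Cdkn2a in double arrays was 1.42 ± 0.48 (limma, SE; adjusted p = 0.0833).

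Outside the p53 pathway, the stress factor Atf4 drives genes of amino acid supply and of the response to unfolded protein. Of 12 such genes 10 were called lower in double, 7 in oncogene and 2 in Wt1-null arrays against the GFP control. Of all genes 2.45% were called lower in double and 0.72% in oncogene arrays, and 0.104% were called in either direction in Wt1-null arrays. Trib3, a pseudokinase, was at -3.50 in double, -3.74 in oncogene and -3.22 in Wt1-null arrays. Genes of mitosis, many of them held down when p53 is active, had a median log2 change of -0.88 in double against GFP control arrays. All 14 lay below 0 there, while 45.4% of all genes lay above 0. Of the 14, 1 was called, Cdc25c (log2 change -1.27), beside 2.45% of all genes called lower. All 14 also lay below 0 against oncogene and against Wt1-null arrays, with medians of -0.91 and -0.81 and 0 called by limma. An unadjusted p below 0.05 was found for 11 and 7 of them, beside 3.09% and 14.8% of all genes. Of the 8 fibroblast markers 2 were called higher in double against GFP control arrays, beside 3.48% of all genes, and 1 in oncogene arrays. Pdgfra, for one, lay between 11.84 and 12.63 in double and between 8.80 and 11.47 in GFP control arrays. Of the markers of other cells, Tek and Cd68 were called higher in double against GFP control arrays, with 1.29 and 0.80. That is 1 of 4 endothelial and 1 of 4 blood genes. The mean of the 4 blood markers lay between 5.84 and 6.27 in double and between 5.57 and 6.01 in GFP control arrays, and that of the 4 endothelial markers between 5.75 and 6.26 in double and between 5.49 and 5.82 in GFP control arrays. The mean of the 4 epithelial markers differed most of these lists, between 6.09 and 7.72 in double and between 6.02 and 6.40 in GFP control arrays, with means of 6.75 ± 0.62 and 6.19 ± 0.13 (SD), and that of the 3 muscle markers lay between 6.21 and 6.86 in double and between 6.07 and 6.50 in GFP control arrays. All 4 epithelial markers lay above the control in double arrays and 0 were called by limma, with 1 at an unadjusted p below 0.05, Krt18, at 1.64 ± 0.75 (SE, adjusted p = 0.22). Their part in the results for the members was not tested, and fewer cells of a type and less RNA per cell cannot be told apart in these arrays.

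The median SD between the arrays of a group was higher over the members than over all genes, and lowest in the control. The members stood between the 53.5 percentile of all probe sets, for Ddb2, and the 99.3 percentile, for Rps27l. All genes include dim ones, whose differences RMA compresses, so the medians do not compare genes of like brightness. The median SD of the 29 members was 0.49 in double, 0.43 in oncogene, 0.50 in Wt1-null and 0.26 in GFP control arrays, while over all genes it was 0.29 in double, 0.25 in oncogene, 0.20 in Wt1-null and 0.18 in GFP control arrays. For 17 of 29 members, 58.6%, the control group had the smallest SD of the 4 groups, as it had for 44.6% of all genes. The contrast was wide for Eda2r, with SDs of 1.07 in double, 0.93 in oncogene, 1.85 in Wt1-null and 0.20 in GFP control arrays, and for Trp53inp1, with 0.999 in double, 0.91 in oncogene, 1.35 in Wt1-null and 0.24 in GFP control arrays. Pmaip1 was an exception, with an SD of 1.52 in GFP control arrays.

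The mean of the 29 members per array showed the same spread. In double arrays it ran from 9.43 through a median of 9.92 to 10.45. It was 10.01, 10.06, 9.65, 9.29 and 9.55 in oncogene arrays, 9.71, 10.41, 9.65, 9.60 and 8.93 in Wt1-null arrays and 9.69, 9.46, 9.53, 9.43 and 9.55 in GFP control arrays. The groups overlapped, and the highest and the lowest Wt1-null arrays, replicates 2 and 5, lay outside the control range on either side. The means over arrays were 9.92 ± 0.40 in double, 9.71 ± 0.32 in oncogene, 9.66 ± 0.53 in Wt1-null and 9.53 ± 0.10 in GFP control arrays (SD).

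**Figure D3:**
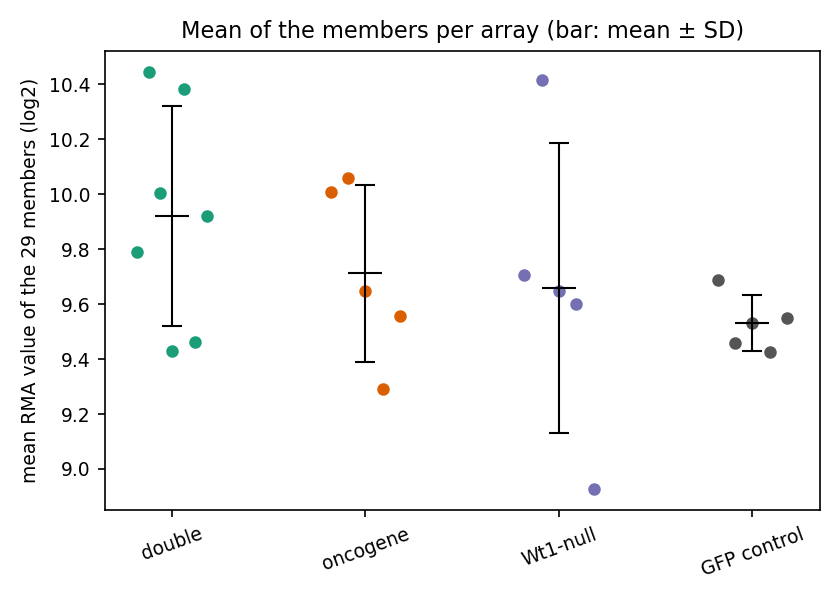
Mean RMA value (log2, vertical axis) of the 29 measured members in each array, with the mean and SD of each group. The double arrays lie between 9.43 and 10.45, and the GFP control arrays between 9.43 and 9.69.

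Within groups, many members rose and fell together across arrays. To measure this without the differences between groups, every gene was fitted on the Mdm2 value with the 4 group means in the same limma fit. Such slope tests were added after the data were seen. A positive slope was called for 15 of the other 28 members, beside 9% of all genes, and a negative slope for 1, beside 11.4%. The median slope was 0.34 over the members and -0.04 over all genes, in log2 units per log2 unit of Mdm2. The largest were those of Pmaip1 (1.45 ± 0.24, SE), Perp (1.30 ± 0.25), Eda2r (1.24 ± 0.18) and Trp53inp1 (1.07 ± 0.13). Among the repair genes Ercc5 (0.66 ± 0.10), Polk (0.62 ± 0.06), Rrm2b (0.56 ± 0.11) and Xpc (0.34 ± 0.08) were called, and Ddb2 (0.06 ± 0.09) was not. The member with a called negative slope was Cd82 (-0.49 ± 0.06).

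The same fit on Cdkn2a, upstream of Mdm2 in the pathway through Arf, called a positive slope for 16 of 29 members, beside 4.3% of all genes, and a negative slope for 1, beside 4.33%. The median slope was 0.34 over the members and -0.01 over all genes. Perp (1.22 ± 0.22, SE), Eda2r (1.19 ± 0.14), Pmaip1 (1.15 ± 0.27), Trp53inp1 (0.99 ± 0.12) and Mdm2 (0.80 ± 0.11) had the steepest slopes, and Cd82 (-0.40 ± 0.07) again the negative one. Sesn1 (0.01 ± 0.11), Ddb2 (0.00 ± 0.08), Bid (0.14 ± 0.10) and Steap3 (-0.21 ± 0.18) were not called. By role, a positive slope on Cdkn2a was called for 9 of 14 genes of cell death, 3 of 8 of arrest and stress, and 3 of 5 of repair. Since Mdm2 and Cdkn2a moved together, the counts on the 2 genes are not independent of each other.

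How many members were called on Cdkn2a depended on a few arrays. Wt1-null replicate 2 had the highest Cdkn2a value of its group, and without it 9 members were called, beside 2.37% of all genes. Without both arrays farthest from the median of the group-centred Cdkn2a value, Wt1-null replicate 2 and oncogene replicate 5, it was 9 as well, beside 2.66%. The count on Mdm2 lay between 14 and 18 when any single array was left out, beside 6.1% to 9.46% of all genes. It fell to 11 without the closest pair of arrays, beside 6.43%. Without both arrays farthest from the median of the group-centred Mdm2 value, Wt1-null replicate 2 and double replicate 5, it was also 11, beside 4.8%. With only the arrays given Cre, 16 members were called on Mdm2, beside 6.62% of all genes, and 14 on Cdkn2a, beside 2.94%. With only the third set of consecutive accession numbers, which holds all double arrays and 4 arrays each of oncogene and GFP control, 11 were called on Mdm2, beside 4.71% of all genes, and 7 on Cdkn2a, beside 0.467%.

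**Figure D4:**
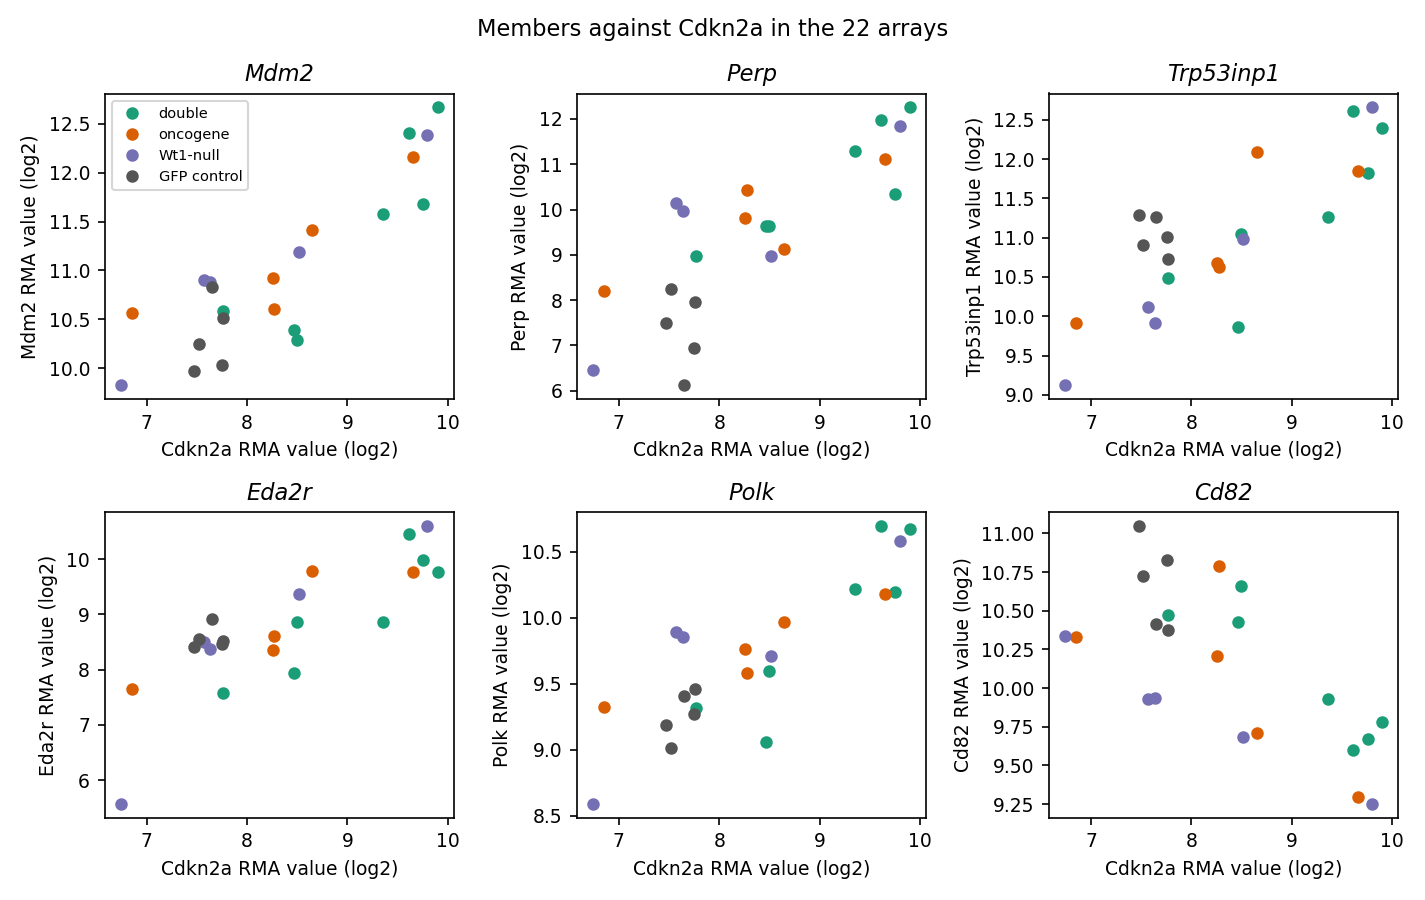
RMA values (log2) of Mdm2, Perp, Trp53inp1, Eda2r, Polk and Cd82 (vertical axes) against that of Cdkn2a (horizontal axes) in the 22 arrays, coloured by group. The groups given Cre reach from 6.74 to 9.90 on Cdkn2a, while the GFP control arrays lie between 7.47 and 7.76, and Cd82 falls along that range.

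**Figure D5:**
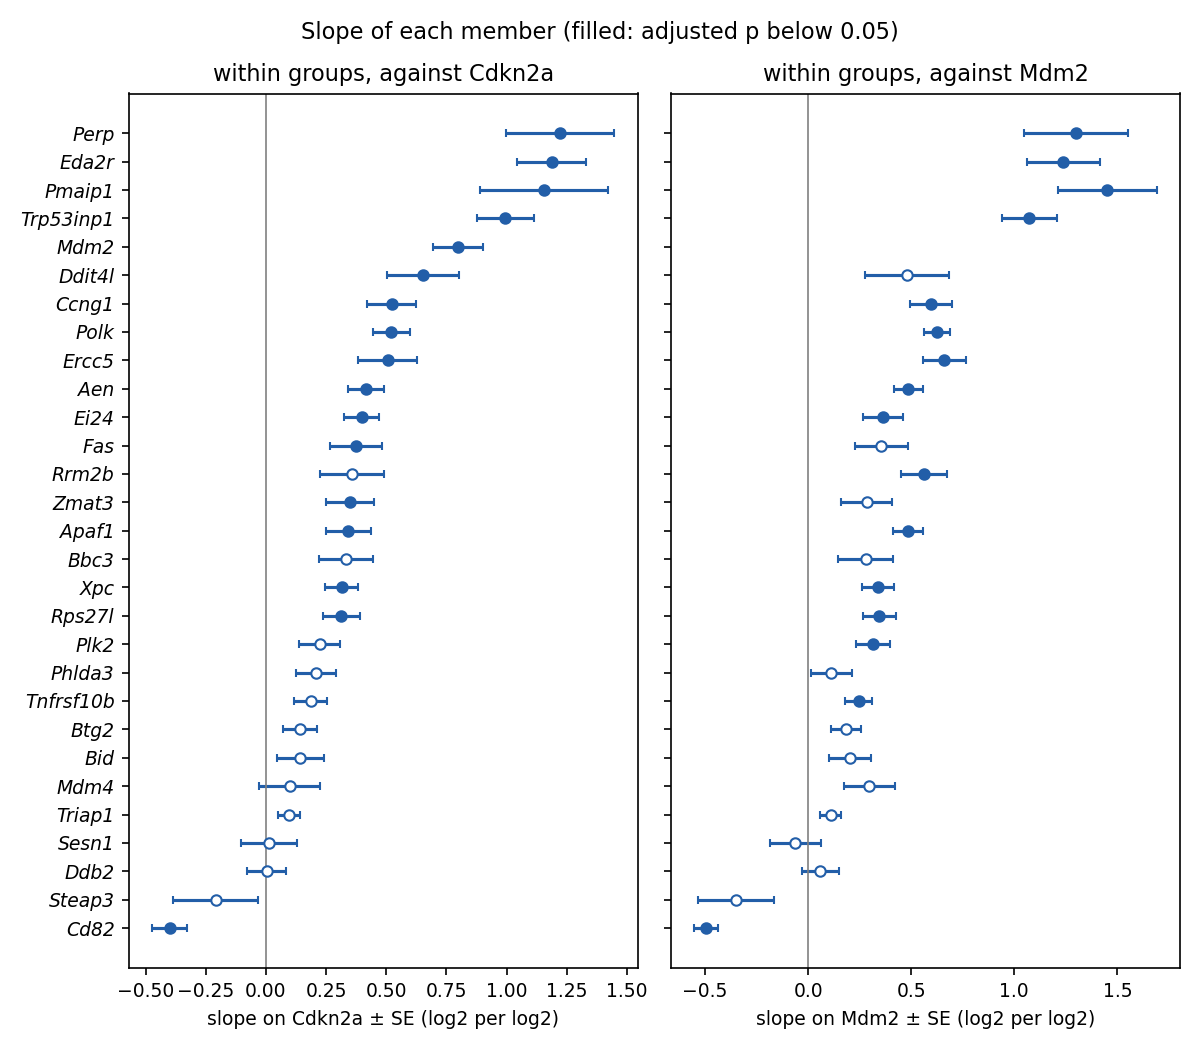
Slope of each member on Cdkn2a (left) and on Mdm2 (right) within groups, in log2 units per log2 unit with the standard error from limma, in the order of the slope on Cdkn2a. Filled points were called at an adjusted p below 0.05, and Cd82 is the called gene below 0 in both panels.

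The slopes of other genes are given for comparison. A positive slope was called for 14 of the 29 further p53 targets on Cdkn2a, beside 4.3% of all genes. On Mdm2 it was called for 10, beside 9%. A negative slope was called for 0 of these targets on Cdkn2a and for 1 on Mdm2, Sertad1 (-0.14 ± 0.04, SE). Cdkn1a had a slope of 0.61 ± 0.13 on Cdkn2a and 0.53 ± 0.17 on Mdm2 (SE), both called. Among all genes a negative slope was called for 4.33% on Cdkn2a and 11.4% on Mdm2. Of the 14 mitosis genes it was called for 12 on Cdkn2a, with a median of -0.55, and for 9 on Mdm2, with a median of -0.53. Their part in the slopes of the members was not tested. Of the 8 fibroblast markers Col1a1 and Pdgfrb had a called negative slope on each of the genes, and Thy1 a called positive one on Mdm2 (0.40 ± 0.11, SE). Of the markers of other cells, Epcam (-0.21 ± 0.07) and Adgre1 (-0.19 ± 0.06), 1 of 4 epithelial and 1 of 4 blood genes, had a called negative slope on Mdm2, and 0 of the endothelial and muscle genes were called by limma, with Krt18, Csf1r, Pecam1 and Myod1 at an unadjusted p below 0.05. On Cdkn2a 0 of the 4 endothelial, 4 epithelial, 4 blood and 3 muscle markers were called by limma, beside 8.64% of all genes, with Krt18, Cd68 and Csf1r at an unadjusted p below 0.05.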

How the data were processed

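RNA of 22 arrays was compared in 4 groups taken from the titles. The authors deposited log2 values, normalized by RMA in Affymetrix Expression Console, per the series' design text and the submitters' processing notes, with no version given in the sources used here. RMA gives every array the same overall distribution and compresses differences of dim genes. The series' design text names 6 oncogene arrays, and 5 were analysed here. Of 45101 probe sets, 64 were controls. The platform annotation named 1 gene for 34945 of the rest, several for 932 and none for 9160, and 34741 matched RefSeq GRCm38.p6 by gene ID. The promoter windows are those of RefSeq. An oncogene and 3 listed genes, with the per-array values of the p53 gene that had been planned, are not reported here.

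Group means of all 22 arrays were fitted with lmFit and eBayes of limma version 3.58.1 under R version 4.3.3, with p-values adjusted over 18193 genes, and the scripts were tested on simulated data. Precision is limited by the number of arrays. The members and lists were chosen with earlier results of these data known. The slope tests were added after seeing the data. Values in every array, or the lowest, median and highest of the 7 double arrays, are given for Mdm2, each called member, the 3 members with the smallest p in each comparison, Cdkn1a and Cdkn2a. From the other lists up to 4 called genes per comparison with the smallest p were named, and Gtse1, Sertad1 and the cell type markers other than Tek and Cd68 were named after their values were seen.

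Accession numbers fell into 3 sets, whose meaning the labels do not give. Alternatives were other choices of probe set, a filter on genes below 4.92, median centring, repeated quantile normalization, array weights, a trended robust variance, fits of fewer groups or arrays, blocks for the replicate number and the accession set, and leaving out each array.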

Additional observations from a re-analysis of the deposited data

Results flagged for a closer look

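In 9 of 120 combinations of a member, or of their mean, and a group, 1 array stood apart from the rest of its group by a gap that was a large share of the group's range. Chance flags about 1 in 20.

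By this rule Wt1-null replicate 5 was low for 3 members. Pmaip1 was 6.45 there, against a range of 8.92 to 9.77 in the rest of the group (gap over range 0.744), Aen was 10.25 against 11.21 to 11.60 (0.713) and Ccng1 was 12.11 against 13.58 to 14.18 (0.711). Without passing the rule, replicate 5 was also the lowest of all 22 arrays for other members, such as Eda2r (5.57), Zmat3 (9.67) and Ddit4l (7.60). The mean of the 29 members was lowest there too, at 8.93. Not every member was low in it, as Btg2 (10.71) and Cd82 (10.34) were the highest of the Wt1-null group. Fas was 10.09 in Wt1-null replicate 2, against 8.29 to 8.58 in the others (0.838).

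Among oncogene arrays, Mdm4 was 7.75 in replicate 4, against 8.49 to 8.76 in the others (0.732), and Ddb2 was 7.29 in replicate 1, against 6.53 to 6.60 (0.907). Among GFP control arrays, Bid was 9.86 in replicate 5, against 10.26 to 10.40 (0.74), Apaf1 stood above the rest in replicate 1 (0.719), which lay at 8.59 to 8.85, and Eda2r was 8.91 in replicate 1, against 8.41 to 8.55 (0.718). The low control value of Bid lies toward the lower values of the double arrays.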

How the results depend on the processing

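No result reversed. Array weights called many more genes of every kind: 7 members in oncogene, 12 in Wt1-null and 17 in double arrays against the GFP control, 6 in double against Wt1-null arrays and 4 in the interaction, beside 24.3%, 33.1%, 33.2%, 19.2% and 15.1% of all genes. Fits of only the groups compared called 2 members in oncogene, 1 in Wt1-null (Cd82) and 5 in double arrays against the control, beside 4.23%, 3.29% and 4.48% of all genes. Without the closest pair of arrays, 1 member (Ddit4l) was called in double against Wt1-null arrays, beside 3.69% of all genes. The number called on Cdkn2a was 6 with the replicate block, 7 in the third accession set alone, 9 without the closest pair and 9 without the arrays farthest from the median, beside 1.16%, 0.467%, 1.9% and 2.66% of all genes.

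Leaving out each array gave 2 to 6 members in double, 0 to 1 in oncogene and 0 to 0 in Wt1-null arrays against the control, 0 to 0 in double against oncogene, 0 to 2 in double against Wt1-null arrays and 0 to 0 in the interaction, 14 to 18 on Mdm2 and 9 to 18 on Cdkn2a. The shares of all genes ran from 3.12% to 9.5% in double, 0.764% to 3.75% in oncogene and 0.011% to 0.665% in Wt1-null arrays against the control, 0% to 5.08% in double against Wt1-null arrays, 6.1% to 9.46% on Mdm2 and 2.37% to 6.03% on Cdkn2a. The oncogene count of 0 came without oncogene replicate 5 or GFP control replicate 2 or 3, and the 2 in double against Wt1-null arrays without Wt1-null replicate 2, beside 5.08% of all genes. With the replicate number as a block, 4 members were called in double (Ei24 added, adjusted p = 0.035 from limma) and 1 in oncogene arrays against the control, 0 in the other comparisons, and 12 on Mdm2. Of all genes 6.24% were then called in double and 1.69% in oncogene arrays, and at most 0.11% in the other comparisons. A positive slope on Mdm2 was called for 5.02% of all genes. Whether the replicate numbers pair the arrays is not settled, and the main fit did not pair them. Of 28 same-numbered pairs 13 had deviations from their group means correlated above 0.1, with a range of -0.47 to 0.77. The correlation was 0.77 for oncogene and double replicate 4, 0.62 for oncogene and double replicate 6 and 0.60 for Wt1-null and double replicate 2. It was -0.47 for double and GFP control replicate 1. The causes of these shifts were not tested.

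Over all settings, 5905 of the members' changes kept their side of the threshold, 55 newly passed it and 14 no longer did. For slopes it was 1811, 42 and 85.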
